A study of Mus musculus with 4 samples.

Results

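The receptor chains described here are 10 genes that carry the signals of interleukins and interferons into B cells, out of 55401 genes listed for each library. They were taken by symbol and are *Il4ra*, *Il2rg*, *Il21r*, *Il13ra1*, *Il6ra*, *Il10ra*, *Ifngr1*, *Ifngr2*, *Ifnar1* and *Ifnar2*, and each symbol matched 1 gene. RNA was sequenced from splenic cells that carry B220, a form of the surface protein CD45 found on most mouse B cells, in 2 libraries of NSD1B WT (Mb1-Cre+ NSD1+/+) and 2 of NSD1B KO (Mb1-Cre+ NSD1fl/fl). Both genotypes are on the C57BL/6J background and both carry Mb1-Cre, a recombinase driven by the *Cd79a* locus from early B cell stages on, so they differ in the floxed *Nsd1* allele. The mice of the study were littermates of 7 to 9 weeks and of either sex. The sources used here do not give the age and sex of the mice behind a library, or whether the libraries of a genotype came from different mice. The p-values below therefore measure only the spread between these libraries, which may be technical.

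Counts on genes lay between 6769118 and 7566834 per library. *Nsd1*, the methyltransferase of lysine 36 of histone H3 that was targeted, had 497 and 480 counts in NSD1B WT and 284 and 280 in NSD1B KO (log2 fold change -0.74, with a standard error, SE, of 0.11). The counts cover the whole gene and not only the floxed exons. All 8 markers of B cells had counts in every library, and their summed level was 12709 to 12936 CPM, the count scaled by TMM to a common library total, in NSD1B WT and 11202 to 12210 in NSD1B KO. Without *Cd79b*, the most abundant of them and not called, the sums were 5931 to 6065 and 3419 to 3675 CPM. Of these 8 markers 6 were lower in NSD1B KO and 0 higher, among them *Pax5*, the factor that maintains B cell identity, at 9.76-fold lower and *Cd79a* at 2.52-fold lower. By the same rule, given below, 41.1% of all tested genes were lower and 37.1% higher. The part of lower B cell markers in the results below was not tested. Markers of other cells moved with genotype. The 5 erythroid markers summed to 35.6 to 39.6 CPM in NSD1B WT and 1690 to 1944 in NSD1B KO, with none at 0 in all libraries. The 9 myeloid markers summed to 4593 to 4695 and 5771 to 6131 CPM, again with none at 0 throughout. Of the 10 T cell markers, *Cd4*, *Cd8a* and *Cd28* were at 0 in all 4 libraries, and the sum was 868 to 875 CPM in NSD1B WT and 113 to 114 in NSD1B KO, most of it from *Cd2* in NSD1B WT. There *Cd2* lay at 837 and 833 CPM beside 4 and 3 counts of *Cd3e*, so the sum with *Cd2* does not measure T cells. In such sorted populations, fewer cells of a kind and less RNA per cell cannot be told apart.

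Cytokine receptors of this class have no kinase of their own. Binding of the cytokine brings receptor chains together, the Janus kinases (JAK) bound to their inner tails are activated, and transcription factors of the STAT family are recruited, phosphorylated and moved to the nucleus. In B cells IL-4 and IL-21 from helper T cells steer class switching, germinal centre reactions and plasma cell formation, IL-6 and IL-10 act on growth and antibody secretion, and interferons change the antibody class and the antiviral state. Such receptors are built from different chains, so partner chains were followed as well.

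Of the 10 chains, 8 passed the filter on low counts and were tested. *Ifngr1*, *Il10ra* and *Ifnar2* were higher in NSD1B KO, *Il4ra*, *Il21r* and *Ifnar1* were lower, and *Il2rg* and *Il6ra* were not called. *Ifngr2* was too low for the test, and *Il13ra1* had no count. The test was edgeR's quasi-likelihood test over 11657 genes, and a call needed more than a 1.2-fold change and a Benjamini-Hochberg adjusted p under 0.05. In that test 37.1% of all genes were called higher and 41.1% lower, together 78.2%, so 6 calls among 8 chains is close to the share over all genes. Under a stricter rule, with adjusted p under 1e-05 and a log2 change beyond 0.5 either way, 4 of the 8 chains and 57.2% of all genes were called. In 7 of the 8 tested chains the libraries of the genotypes did not overlap, which was so for 88.1% of all tested genes. *Il21r* passed the filter through NSD1B WT alone. Of all 11657 tested genes, 1313 had 0 counts in NSD1B KO only and 890 in NSD1B WT only. A gene at 0 in 1 genotype is thus common in these libraries. The median log2 fold change of the tested chains was -0.24, and that of all tested genes was -0.10.

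**Figure D1:**
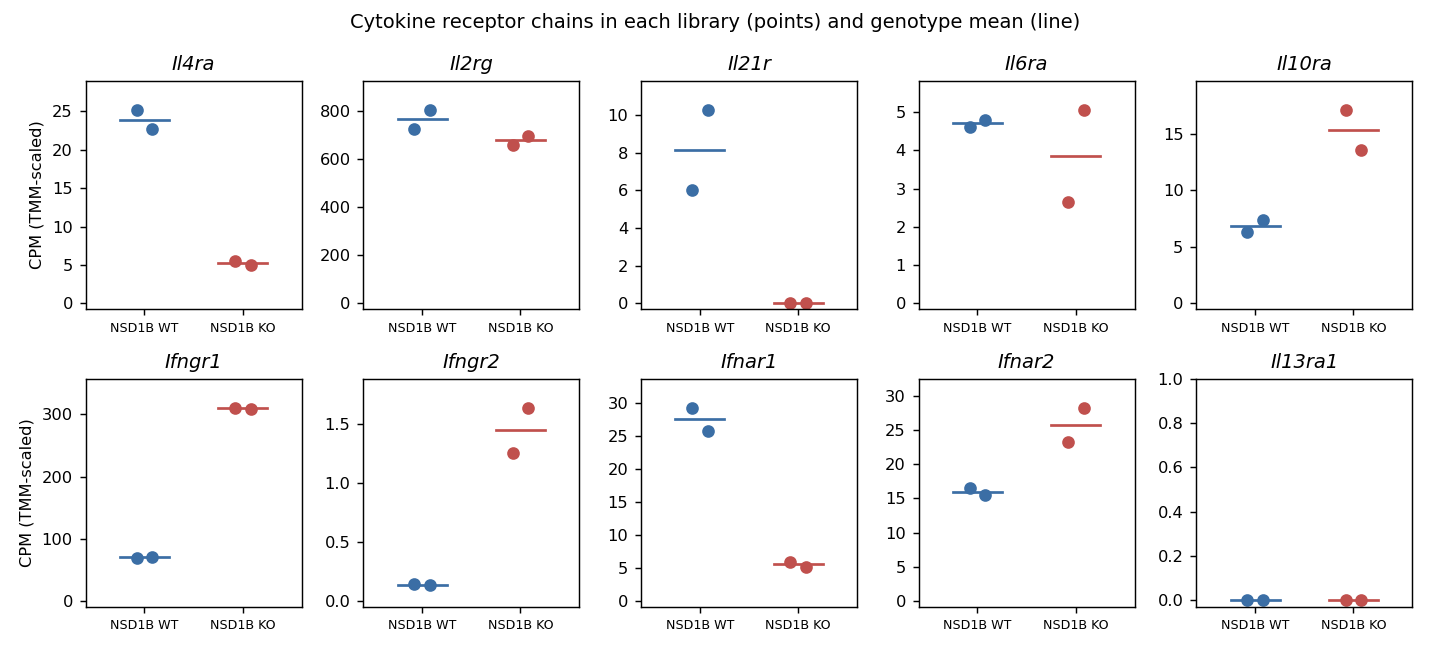
Level of each receptor chain in CPM after TMM scaling (vertical axes, linear and of different range) in the 2 libraries of NSD1B WT (blue) and of NSD1B KO (red), with the mean as a line. *Ifngr1* lies near 70 and 310 CPM, *Il21r* is at 0 in both libraries of NSD1B KO, and the libraries overlap only for *Il6ra* and for *Il13ra1*, which is at 0 throughout.

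The first group binds IL-4, IL-13 and IL-21. *Il4ra* (ENSMUSG00000030748.9) encodes the chain that binds IL-4, and it lies on the plus strand at chr7:125552120-125579474 (mm10, GENCODE M21). It had 180 and 166 counts in NSD1B WT and 40 and 34 in NSD1B KO, or 25.2 and 22.7 against 5.56 and 5.05 CPM. Both libraries of NSD1B KO lay far below both of NSD1B WT. The fold was 4.50 lower in NSD1B KO (log2 change -2.17, SE 0.22, edgeR adjusted p = 3.38e-12). An antisense RNA, Gm44876, covers 9.5% of its exon length and had 0 counts in every library.

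*Il21r* (ENSMUSG00000030745.9), the chain specific for IL-21, is the next receptor gene on the same strand, at chr7:125603429-125633570, 23954 bp past the end of *Il4ra*. It was counted 43 and 75 times in NSD1B WT and 0 times in both libraries of NSD1B KO. The libraries of NSD1B WT differed from each other, at 6.02 and 10.3 CPM, by more than those of most other chains. Against a limit of 3 counts over the NSD1B KO libraries, *Il21r* was at least 37.8-fold lower. It entered the test only through its counts in NSD1B WT, so its call is not independent support for the difference. IL-21 receptors are also known on T cells and NK cells. Beside this result, the T cell markers without *Cd2* summed to 34.9 to 37.5 CPM in NSD1B WT and 50.4 to 52.4 in NSD1B KO, a sum carried by *Cd3g* and *Cd3d*, which were higher. Apart from *Cd2*, the other T cell markers tested, *Lck* and *Thy1*, were lower, as *Il21r* was. *Lck* had 32 and 42 counts in NSD1B WT and 3 and 4 in NSD1B KO, and *Thy1* 41 and 35 against 0. The NK marker *Klrb1c* had 26 and 21 counts against 0, while 3 of the 4 tested NK markers were higher in NSD1B KO. The part of these cells in the lower *Il21r* was not tested.

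*Il2rg* (ENSMUSG00000031304.18), on the minus strand at chrX:101264378-101268255, encodes the common gamma chain that IL-2, IL-4, IL-7, IL-9, IL-15 and IL-21 receptors share. It had the most counts of the 10 chains, with 5196 and 5890 in NSD1B WT and 4749 and 4699 in NSD1B KO, or 727 and 806 against 660 and 698 CPM. The libraries did not overlap, but the distance between genotypes was small next to that of *Il4ra*. Its log2 fold change was -0.17, with a 95% interval of -0.33 to -0.02 (adjusted p = 0.0366, edgeR), and the fold of 1.13 stayed under the limit of 1.2. A readthrough gene on the same strand, Gm20489, covers 30.5% of the exon length of *Il2rg* and had 22, 16, 0 and 0 counts in the 4 libraries. Reads in that stretch can be left out or assigned to either gene, so the level of *Il2rg* may be understated.

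*Il13ra1* (ENSMUSG00000017057.9), on the plus strand at chrX:36112110-36171259, pairs with *Il4ra* in the receptor that also binds IL-13, which is known mainly from myeloid and non-haematopoietic cells. It had 0 counts in all 4 libraries. At this depth that allows up to 0.208 CPM in NSD1B WT and 0.215 in NSD1B KO, taken as 3 counts over the libraries of a genotype, and covers counting error only.

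The second group binds IL-6 and IL-10. *Il6ra* (ENSMUSG00000027947.11), the chain that binds IL-6 before gp130 joins it, lies on the minus strand at chr3:89864059-89913196. It was counted 33 and 35 times in NSD1B WT and 19 and 34 times in NSD1B KO, or 4.62 and 4.79 against 2.64 and 5.05 CPM. One library of NSD1B KO lay below and the other above both of NSD1B WT. Its log2 fold change was -0.30, with a 95% interval of -1.02 to 0.43 (adjusted p = 0.45, edgeR), and without NSD1B KO replicate 1 it was 0.10. At this depth a level about 2-fold lower lies within the interval. The signalling partner *Il6st*, which encodes gp130, rose from 28.0 and 26.5 to 83.4 and 74.2 CPM (log2 change 1.53, SE 0.12, edgeR adjusted p = 3.14e-16).

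*Il10ra* (ENSMUSG00000032089.16) encodes the chain that binds IL-10 and lies on the minus strand at chr9:45253837-45269149. Its counts were 45 and 54 in NSD1B WT and 123 and 91 in NSD1B KO, or 6.30 and 7.39 against 17.1 and 13.5 CPM. Both libraries of NSD1B KO were higher, and they differed from each other more than those of NSD1B WT. The fold was 2.24 (log2 change 1.16, SE 0.24, edgeR adjusted p = 2.61e-05). Its partner *Il10rb*, which also serves receptors for IL-22 and type III interferons, rose as well, from 11.1 and 9.71 to 44.6 and 43.1 CPM (log2 change 2.08, SE 0.16, edgeR adjusted p = 7.74e-16). Myeloid cells carry IL-10 receptors as well, and the myeloid markers without *Lyz2* summed to 147 to 158 CPM in NSD1B WT and 230 to 240 in NSD1B KO, with 6 of the 8 tested myeloid markers higher and 2 lower. Their part in the higher *Il10ra* was not tested.

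The third group binds interferons. *Ifngr1* (ENSMUSG00000020009.13), the chain that binds interferon gamma, lies on the plus strand at chr10:19591949-19610229. It had 499 and 517 counts in NSD1B WT and 2236 and 2076 in NSD1B KO, or 69.8 and 70.7 against 311 and 309 CPM. Libraries of a genotype were nearly equal, and the genotypes were far apart. The fold was 4.41 (log2 change 2.14, SE 0.09, edgeR adjusted p = 2.41e-26). Over 15 alternative analyses its log2 fold change lay between 2.06 and 2.17.

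*Ifngr2* (ENSMUSG00000022965.8), the chain that joins JAK2 to the interferon gamma receptor, lies on the plus strand at chr16:91547072-91565623. It was counted once in each library of NSD1B WT and 9 and 11 times in NSD1B KO. The ratio of the levels was 10.4, with a 95% interval of 2.52 to 91.6 that covers counting error only. With a filter of 1 count in any library it could be tested, where the log2 change was 3.23 (SE 1.05, edgeR adjusted p = 0.00376). So both chains of the interferon gamma receptor had more counts in NSD1B KO, one at a high level and the other at the edge of detection.

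*Ifnar1* (ENSMUSG00000022967.13) and *Ifnar2* (ENSMUSG00000022971.18) form the receptor of type I interferons, the first bound to TYK2 and the second to JAK1. *Ifnar1*, on the plus strand at chr16:91485238-91507441, had 209 and 188 counts in NSD1B WT and 43 and 35 in NSD1B KO, or 29.2 and 25.7 against 5.98 and 5.20 CPM. Its level was 4.90-fold lower in NSD1B KO (log2 change -2.29, SE 0.21, edgeR adjusted p = 1.49e-13). *Ifnar2*, on the same strand at chr16:91372783-91405589, went the other way, from 118 and 113 counts to 167 and 190, or from 16.5 and 15.5 to 23.2 and 28.2 CPM. The fold was 1.61 (log2 change 0.68, SE 0.17, edgeR adjusted p = 0.000438). The chains of this receptor thus moved in opposite directions. In neither did the genotypes overlap, which was so for 88.1% of all tested genes. An annotated readthrough of *Ifnar2* and *Il10rb*, Gm21970, covers 9.5% of the exon length of *Ifnar2* and had 0 counts throughout.

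Of the interferon receptor chains, *Ifnar2*, *Ifnar1* and *Ifngr2* lie near each other on chromosome 16, and *Ifngr1* on chromosome 10. Within 192841 bp the plus strand carries *Ifnar2*, *Il10rb* after 574 bp, *Ifnar1* after a further 59403 bp and *Ifngr2* after a further 39630 bp. In this order the chains were higher (*Ifnar2*), higher (*Il10rb*), lower (*Ifnar1*) and, without a test in the main analysis, at 2 counts against 20 (*Ifngr2*). The neighbours on chromosome 16 thus had no single direction, and *Il4ra* and *Il21r* on chromosome 7 were both lower.

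RefSeq gave a start region for 9 of the 10 chains (GRCm38.p6), which were searched over the 250 bases before the start for sites of the factors these receptors use and for a common promoter element. The letters were TTCNNNGAA, bound by most STAT dimers, the same ends with 4 free bases between them, the spacing preferred by STAT6, the core of the interferon-stimulated response element, which is GAAA, 2 free bases and GAAA, and GGGCGG, the GC box bound by SP1. Both strands were searched, and the first 2 are their own reverse complement. Of all 32851 such windows 7.02%, 5.85%, 2.98% and 32.7% held them. Start regions of 4 genes are printed because their genes were called and lie in the clusters above or had the strongest rise, in lower case on the strand of the gene with matches in capitals (CCGCCC is the GC box read from the other strand).
Il21r, chr7:125603179-125603428, plus strand: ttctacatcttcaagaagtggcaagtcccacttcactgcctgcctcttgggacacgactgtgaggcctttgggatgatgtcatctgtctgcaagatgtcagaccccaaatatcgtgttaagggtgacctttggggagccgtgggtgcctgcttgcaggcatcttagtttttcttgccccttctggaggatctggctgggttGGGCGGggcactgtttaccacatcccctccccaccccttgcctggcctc
Ifnar2, chr16:91372533-91372782, plus strand: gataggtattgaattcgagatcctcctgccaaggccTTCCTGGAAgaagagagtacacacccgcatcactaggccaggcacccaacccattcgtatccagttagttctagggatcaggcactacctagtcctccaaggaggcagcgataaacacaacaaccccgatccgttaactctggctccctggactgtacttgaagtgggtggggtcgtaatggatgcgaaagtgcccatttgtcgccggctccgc
Ifnar1, chr16:91484965-91485214, plus strand: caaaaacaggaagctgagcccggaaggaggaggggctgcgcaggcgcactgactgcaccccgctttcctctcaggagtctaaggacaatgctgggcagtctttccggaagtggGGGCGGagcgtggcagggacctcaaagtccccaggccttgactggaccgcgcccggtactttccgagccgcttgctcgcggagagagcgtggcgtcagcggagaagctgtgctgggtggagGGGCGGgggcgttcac
Ifngr1, chr10:19591699-19591948, plus strand: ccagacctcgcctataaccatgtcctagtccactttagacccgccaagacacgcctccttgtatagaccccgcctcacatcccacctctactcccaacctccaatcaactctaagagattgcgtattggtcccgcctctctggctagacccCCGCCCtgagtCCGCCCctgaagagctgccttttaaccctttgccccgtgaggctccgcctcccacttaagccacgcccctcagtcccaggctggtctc
The window of *Ifnar2* held the STAT spacing of 3, starting 214 bases before the start, and no GC box. That of *Ifnar1* held GC boxes starting 137 and 16 bases before it, that of *Ifngr1* at 99 and 88 bases, and that of *Il21r* at 49 bases. The window of *Ifngr2* held the STAT6 spacing at 91 bases. GC boxes were found in 6 of the 9 windows, among genes that were higher, lower and without counts, and the interferon element in 0. The window of *Il21r* held 4 CG dinucleotides and that of *Il2rg* 3, against 11 in *Ifngr1* and in *Ifnar2*, 19 in *Ifnar1* and a median of 6 over all windows. These are descriptions of the letters and not of binding. The sequence before *Il4ra* is not printed, since GENCODE starts the gene inside the RefSeq window.

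Levels were compared between genes per kilobase of exon (CPM per kb), over all annotated exons of a gene. In NSD1B WT the common gamma chain *Il2rg* stood far above the others at 321 ± 23.3 CPM per kb (mean ± SD, n = 2 libraries), followed by *Ifngr1* at 24.7 ± 0.221. Next came *Ifnar2* at 4.80 ± 0.224, *Ifnar1* at 4.63 ± 0.420 and *Il4ra* at 3.99 ± 0.292, of which the libraries of *Ifnar2* and *Ifnar1* overlapped. *Il21r* at 2.45 ± 0.902 and *Il10ra* at 1.96 ± 0.220 also overlapped, and *Il6ra* and *Ifngr2* lay below at 0.544 and 0.0367. The chains of the type I interferon receptor thus did not differ beyond their spread in NSD1B WT.

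In NSD1B KO *Il2rg* was again first at 285 ± 11.4 CPM per kb, but *Ifngr1* followed at 109 ± 0.534. *Ifnar2* at 7.73 ± 1.07 and *Il10ra* at 4.38 ± 0.721 came next and did not overlap. *Ifnar1* at 0.941 ± 0.0920 and *Il4ra* at 0.884 ± 0.0595 overlapped, as did *Il6ra* at 0.445 ± 0.197 and *Ifngr2* at 0.383 ± 0.0722. *Il10ra* moved from the seventh to the fourth place, and *Il21r* joined *Il13ra1* at 0.

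The balance within a receptor was read as the log2 ratio of its chains per kilobase in the same library, which needs no scaling between libraries. For *Ifnar1* to *Ifnar2* it was -0.01 and -0.10 in NSD1B WT and -2.79 and -3.28 in NSD1B KO. The chains were near even in NSD1B WT, and the ratio was 7.88-fold lower in NSD1B KO. For *Il4ra* to *Il2rg* it was -6.18 and -6.48 against -8.22 and -8.44. The mean shift was -2.00 on the log2 scale, with *Il2rg* itself 1.13-fold lower.

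For *Il10ra* to *Il10rb* the log2 ratio was -0.69 and -0.27 in NSD1B WT and -1.26 and -1.55 in NSD1B KO, so the ratio was lower although both chains were higher. For *Il6ra* to *Il6st* it was -2.24 and -2.11 against -4.62 and -3.51, with a wide gap between the libraries of NSD1B KO. For *Ifngr1* to *Ifngr2* it was 9.37 and 9.42 against 8.36 and 7.96. That last ratio rests on 1 *Ifngr2* count in each NSD1B WT library, and the counting interval of *Ifngr2* includes the fold of *Ifngr1*. The other 2 receptors have a chain at 0 and no ratio. Genotypes did not overlap in any of the 5 ratios, beside 88.1% of single genes over all genes tested, so this is close to the background. An exact permutation test, two-sided, gives p = 0.333 for each, the smallest that 2 libraries against 2 allow.

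**Figure D2:**
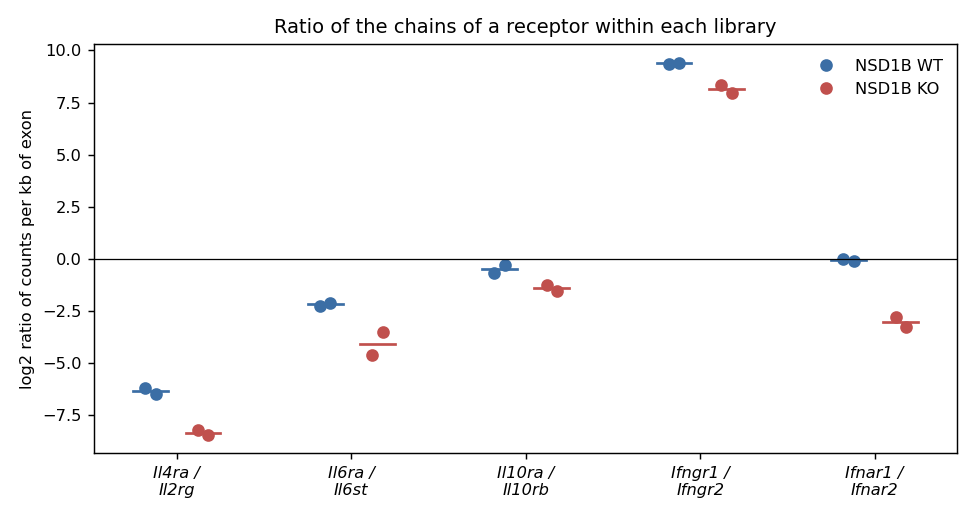
Log2 ratio of the first chain to the second, in counts per kilobase of exon, within each library (points; line, mean of the 2 libraries) for 5 receptors in NSD1B WT (blue) and NSD1B KO (red). The ratio of *Ifnar1* to *Ifnar2* lies near 0 in NSD1B WT and between -2.79 and -3.28 in NSD1B KO, and all 5 ratios are lower in NSD1B KO.

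The other chains of the same receptor families were taken as a list of 31 genes. Of these 16 had no count in any library, 13 were tested, 5 were higher and 6 lower in NSD1B KO, and the median log2 fold change was -0.05. The share called was 84.6%, beside 78.2% of all tested genes. Higher were *Il15ra*, the chain that presents IL-15, with 27 and 24 counts against 172 and 150 (log2 fold change 2.71, SE 0.25), and *Lifr*, the receptor of leukaemia inhibitory factor, with 25 and 32 against 110 and 100 (1.93, SE 0.27). Lower were *Il9r*, with 261 and 238 against 29 and 28 (-3.07, SE 0.21), and *Il5ra*, the IL-5 chain known from B1 cells and eosinophils, with 817 and 872 against 318 and 293 (-1.41, SE 0.10). *Csf2rb*, the beta chain that joins *Il5ra*, was lower too, with 263 and 278 against 132 and 138 (-0.95, SE 0.15). By flow cytometry the paper reported more B1 cells in the NSD1B KO spleen. The part of B1 cells in the *Il5ra* counts was not tested.

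Among the kinases *Jak1*, which binds most of these receptors, had 1546 and 1582 counts in NSD1B WT and 1676 and 1508 in NSD1B KO and was not called (log2 fold change 0.08, SE 0.08). *Jak2* was higher at 0.43 (SE 0.10) and *Tyk2* at 0.86 (SE 0.25). *Jak3*, the partner of the common gamma chain, had 13, 8, 6 and 6 counts and could not be tested. The log2 changes of the tested JAK genes thus ran from 0.08 to 0.86.

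The STAT genes described here moved in both directions, and *Stat2* was not called at -0.23 (SE 0.22). *Stat6*, the factor of IL-4, rose from 30 and 31 counts to 357 and 361 (log2 change 3.61, SE 0.19, edgeR adjusted p = 2.21e-22), while *Il4ra* fell. *Stat4*, known best from IL-12 receptors, rose from 15 and 16 to 257 and 239 (4.04, SE 0.24). *Stat3*, the factor of IL-6, IL-10 and IL-21, was lower at -0.40 (SE 0.15). *Stat5b* at -0.67 (SE 0.15) and *Stat5a* at -3.88 (SE 0.54), which serve receptors with the common gamma chain, were lower as well.

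**Figure D3:**
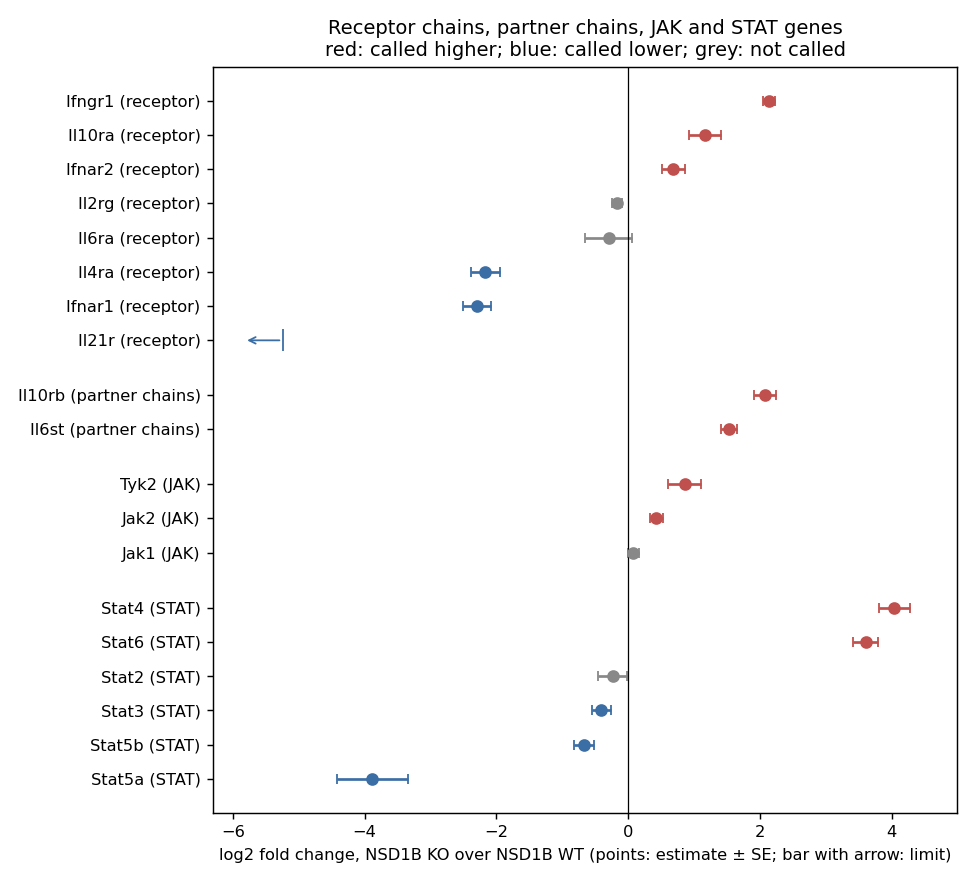
Log2 fold change of NSD1B KO over NSD1B WT (horizontal axis; points, estimate with its standard error; bar with arrow, limit for a gene with 0 counts in NSD1B KO) for the tested receptor chains, their partner chains and JAK and STAT genes. *Stat6* lies at 3.61 and *Il4ra* at -2.17, and the JAK genes stay between 0.08 and 0.86.

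Of 18 inhibitors of cytokine signalling 13 were tested, 5 higher and 5 lower, with a median of 0.08. The share called was 76.9%, beside 78.2% of all tested genes. *Socs6* rose from 38 and 30 counts to 417 and 337, *Ptpn11*, the phosphatase SHP2, from 170 and 177 to 472 and 428, and *Usp18*, which binds IFNAR2 and damps type I interferon signals, from 33 and 60 to 150 and 133. *Socs7* fell from 157 and 105 to 5 and 9, *Ptpn1*, the phosphatase PTP1B, from 346 and 383 to 33 and 38, and *Pias1*, an inhibitor of STAT signalling, from 1599 and 1628 to 554 and 445. *Socs1*, *Socs5* and *Cish* had no count in any library. Each direction thus holds phosphatases and SOCS proteins.

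Of 12 ligand genes 9 had no count, among them *Il4*, *Il21*, *Il6*, *Il10* and *Ifnb1*. *Il15* had 0 counts in NSD1B WT and 174 and 146 in NSD1B KO, at least 111-fold higher, and *Ifng* had 0 against 41 and 35, at least 26.3-fold higher. *Il2* had 25 and 28 against 18 and 19 and was not called. Reads of *Il15* and of *Ifng* were thus seen only in NSD1B KO, as were those of 890 among all 11657 tested genes. The 6 NK markers summed to 56.5 to 59.9 CPM in NSD1B WT and 92.0 to 95.1 in NSD1B KO, with the defining *Ncr1* and *Gzma* at 0 throughout. Without *Nkg7* the sums were 3.15 to 4.34 and 12.3 to 15.1 CPM, and of the 4 tested NK markers 3 were higher and *Klrb1c* lower. Their part in the ligand counts was not tested.

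Genes that answer to the receptors did not move as one. Of 16 type I interferon response genes 13 were tested, 4 higher and 7 lower, with a median log2 fold change of -0.85. *Ifit3* had 160 and 175 counts in NSD1B WT and 0 in NSD1B KO, at least 108-fold lower, and *Oasl2* fell from 165 and 183 to 18 and 24. *Irf7*, a regulator of type I interferon genes, fell from 124 and 117 to 65 and 64. *Oas1a* had 0 against 218 and 156, at least 129-fold higher, and *Rtp4* rose from 385 and 386 to 939 and 824.

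Of 19 interferon gamma response genes 16 were tested, 2 higher and 10 lower, with a median of -0.54. The share called was 75%, beside 78.2% of all tested genes. *Gbp4* had 145 and 139 counts against 0, at least 91.2-fold lower, *Gbp7* fell from 542 and 516 to 141 and 126, and the immunity-related GTPase *Irgm1* from 371 and 398 to 113 and 89. *Gbp3* rose from 400 and 430 to 1046 and 876, and *Nlrc5*, the activator of MHC class I genes, from 99 and 127 to 227 and 202. This list held more lower than higher genes, beside 41.1% lower and 37.1% higher over all tested genes. No test of the list against other genes was made.

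Of 14 genes that interleukins regulate in B cells 11 were tested, 4 higher and 6 lower, with a median of -0.27. The share called was 90.9%, beside 78.2% of all tested genes. *Fcer2a*, the gene of CD23 and a target of IL-4, had 134 and 172 counts against 0, at least 98.1-fold lower. By flow cytometry, which reads protein, the paper reported fewer CD23+ B cells in the NSD1B KO spleen, follicular cells among them. The part of these cells in the *Fcer2a* counts was not tested. *Batf*, a factor of class switching, had 153 and 130 against 0, at least 91.0-fold lower. Among all 11657 tested genes 1313 were at 0 in NSD1B KO only. *Bcl6*, which directs the germinal centre programme, rose from 34 and 35 to 112 and 91, *Id3* from 70 and 70 to 280 and 277, and the kinase *Pim1* from 64 and 69 to 162 and 133.

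**Figure D4:**
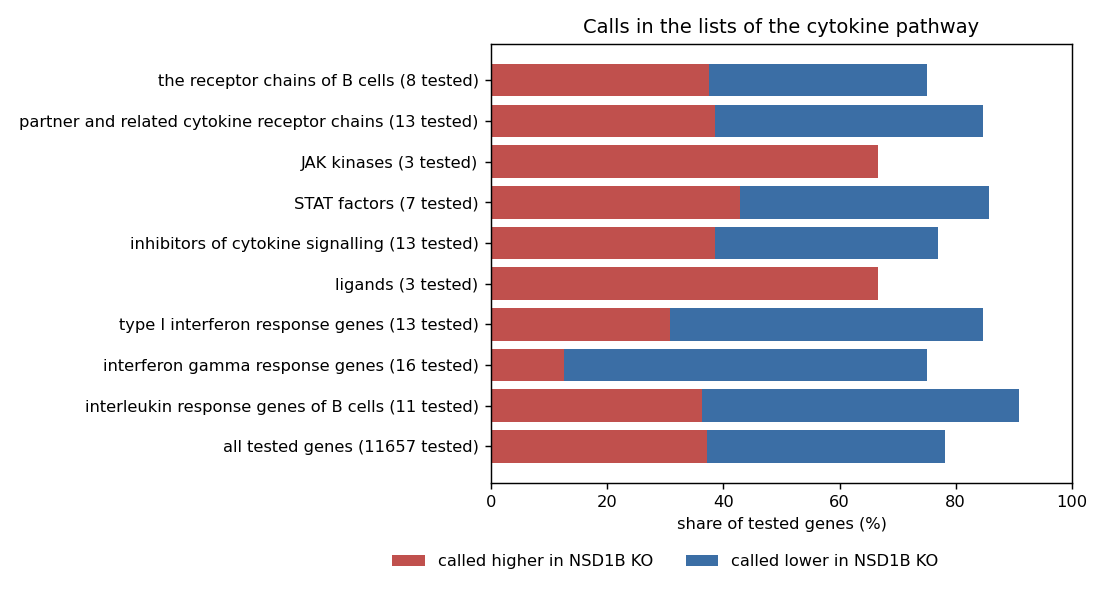
Share of tested genes called higher (red) and lower (blue) in NSD1B KO, in percent, for the receptor chains of B cells, 8 further lists of the cytokine pathway and all tested genes, with the number tested beside each name. The interferon gamma response genes have 2 higher and 10 lower of 16, and all tested genes 37.1% and 41.1%.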

How the data were processed

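RNA of B220+ spleen cells was measured in 2 NSD1B WT and 2 NSD1B KO libraries, grouped by label. The values are whole-number read counts by gene as deposited by the authors, who mapped paired-end reads to mm10 with Bowtie2. Their FPKM values from Cufflinks were not used. Which counter, strand setting and annotation made the counts is not given in the sources used here. Lines that name no gene stayed out of library sizes: 44.3% to 44.6% of reads lay on no gene, 2.21% to 2.41% were ambiguous and 11.2% to 13.2% not unique. GENCODE M21 held 99.5% of the 55401 gene IDs and gave positions and exon lengths.

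Counts were scaled by TMM (0.952 to 1.03), filtered by filterByExpr (minimum count 10, minimum total 15) and tested with edgeR 4.0.16 in R 4.3.3, with Benjamini-Hochberg adjustment. The SE is the log2 change over the square root of F. The study's 1.2-fold limit and p of 0.05 were used, with p adjusted. A genotype at 0 was given a limit of 3 counts over its libraries, and Ifngr2 an exact 95% interval of its ratio. Reads are not independent molecules, so both cover counting error only. Ratios were tested with SciPy 1.17.1. The fit was tested on simulated counts with a common dispersion and 200 changed genes. That simulation does not test the scaling where 78.2% of genes are called, as here. Within NSD1B WT and NSD1B KO the libraries differed by a mean chi-square of 2.99 and 3.86 per gene, above counting error.

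The 10 chains, the gene lists and the tests were chosen with earlier results of these data known. Named genes are the chains, their partners and overlapping neighbours, *Nsd1*, the JAK and STAT genes, and in the other lists up to 3 called genes a direction with the largest change at a mean log2 CPM of at least 3. A few genes that this rule names are not reported here. Marker genes, genes named as having no count, *Ifng* and *Il2* were named after their values were seen. Alternatives were DESeq2 1.42.0, limma-voom (limma 3.58.1), other scalings, filters and thresholds, removal of a length and GC trend (loess span 0.5), leaving out immunoglobulin genes or 1 library, and a replicate block.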

Additional observations from a re-analysis of the deposited data

How the results depend on the processing

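Over 16 alternatives, the 6 called chains kept their direction and their call where they were tested, except that *Il10ra* and *Ifnar2* lost their call under the stricter rule of adjusted p under 1e-05 and a log2 change beyond 0.5. There 1 chain was higher. *Il21r* was not tested with a filter of 1 CPM in all libraries, which left 2855 genes higher and 2991 lower of those tested. Among the genes of the pathway lists it left 22 higher and 21 lower. *Il6ra* changed sign without NSD1B KO replicate 1, at 0.10 (edgeR adjusted p = 0.832), and lay at -0.82 without NSD1B KO replicate 2 (adjusted p = 0.0975). *Il2rg* was not called in any, with a log2 fold change of -0.25 to -0.07. Leaving out 1 library at a time, the chains called higher numbered 3 to 4 and those called lower 3. The extra chain was *Ifngr2*, called without NSD1B WT replicate 1 (adjusted p = 0.0404) and not called, with an adjusted p at the threshold, without NSD1B WT replicate 2. All tested genes called numbered 4122 to 4342 higher and 4356 to 4936 lower, and those of the lists 27 to 29 and 35 to 38. *Nsd1* lay between -0.77 and -0.66. The ratio of *Ifnar1* to *Ifnar2* shifted by -3.22 to -2.74 on the log2 scale, of *Il4ra* to *Il2rg* by -2.15 to -1.85, of *Il6ra* to *Il6st* by -2.45 to -1.34, of *Il10ra* to *Il10rb* by -1.13 to -0.72 and of *Ifngr1* to *Ifngr2* by -1.43 to -1.03. The labels do not say that a replicate number marks a shared animal or day, and same-numbered libraries correlated at 0.077 in their deviations. With the replicate number as a block 4254 genes were higher and 4706 lower, and *Ifnar1* was at -2.29, with no call among the chains changed. Leaving out a library leaves 1 sample in a genotype, assumed to vary like the other. *Ifngr2*, *Il13ra1* and *Jak3* lie near or under the limit of this depth.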
